A study of Rattus norvegicus with 6 samples.

Results

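The unfolded protein response (UPR) regulators are 10 genes, Atf4, Atf6, Xbp1, Ddit3, Ern1, Eif2ak3, Trib3, Asns, Herpud1 and Sdf2l1, which were taken by name from the table of normalized counts. Of the 10, 8 had a feature of their own among the 27321 features of the table and 8 were expressed highly enough to be tested among 13486. No feature was named Xbp1, and Ddit3 occurred only in a feature merged with its neighbor Mars, so neither has a value of its own here. RNA-seq was performed on the IM tip, the innermost part of the kidney inner medulla, of male Sprague-Dawley rats aged 3 months, to examine the glycosylation enzymes of the diabetic kidney. The 3 control libraries came from rats given the citrate buffer vehicle, and the 3 STZ libraries came from rats given streptozotocin, a toxin of the insulin-secreting beta cells, at 62.5 mg/kg by tail vein. Tissue of both groups was taken on day 15 after the injection. The labels number the libraries without saying whether each holds the tissue of a single rat, so p-values measure the spread between these libraries only.

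The UPR is set off when unfolded proteins collect in the endoplasmic reticulum (ER), and it runs through 3 sensors in the ER membrane. PERK, encoded by Eif2ak3, phosphorylates the translation factor eIF2alpha, which lowers general protein synthesis while favoring translation of the transcription factor ATF4. IRE1, encoded by Ern1, splices the mRNA of Xbp1, and ATF6 is cut in the Golgi to release a transcription factor. Much of this signaling lies in phosphorylation, splicing and cleavage, which gene-level RNA counts do not measure. The PERK branch is shared with other eIF2alpha kinases in the integrated stress response, whose ATF4 targets include amino acid synthesis genes and aminoacyl-tRNA synthetases.

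Each library held between 3412311 and 5575171 reads on features, and a single read was worth 0.763 to 1.11 normalized counts, which are read counts divided by the DESeq size factor of the library. Reads were amplified by PCR without molecular identifiers, so they are not independent molecules. The 95% intervals given are those of limma and rest on the spread between the libraries. In limma's test on log2(normalized count + 1), 283 of the 13486 features (2.10%) were called at an adjusted p under 0.05. Of these, 158 (1.17%) were higher and 125 (0.927%) lower in STZ. At an unadjusted p under 0.05 there were 1988 (14.7%), and in 2744 (20.3%) the values of the groups did not overlap. The median log2 fold change (STZ over control) of all tested features was 0.0056, and 49.5% were below 0. Collecting duct principal cell markers such as Aqp2 summed to between 10692 and 35182 normalized counts, and thin limb markers summed to between 28971 and 43637. Most of the thin limb sum was Cryab (26757 to 42081), while Aqp1 had 61.3 to 119. The markers of both types were above 3 reads in every library. By the column headers, all controls were read on lane 3 and STZ replicates 1, 2 and 3 on lanes 7, 6 and 8. Effects of the lane and of STZ therefore cannot be told apart.

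None of the 8 regulators passed the threshold by limma, against 2.10% of all features. A single gene, Atf6, had an unadjusted p under 0.05 and groups that did not overlap, against 14.7% and 20.3% of all features. The counts of regulators called by edgeR and by DESeq2 on the reads recovered from the table were also 0. Of all 13486 features, edgeR called 287 and DESeq2 599. DESeq2 gave no adjusted p for Ern1, Trib3 and Sdf2l1. Of the 8 log2 fold changes, 5 were above 0 and 3 below, with a median of 0.04 and a range from -0.59 for Atf6 to 1.36 for Ern1.

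**Figure D1:**
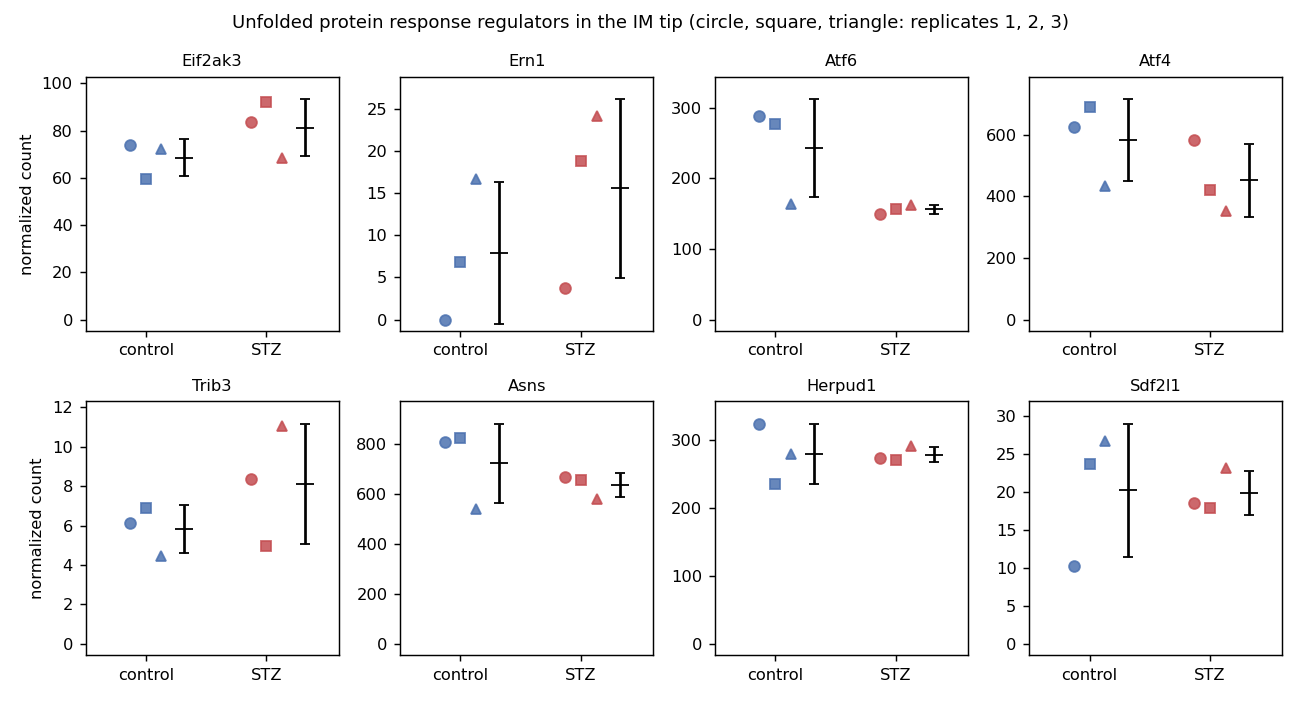
Normalized counts of the 8 regulators with a feature of their own in the 3 control and 3 STZ libraries (vertical axes, normalized count, a separate scale for each gene). Points are libraries, and bars are means ± SD (n = 3). Only for Atf6 do the STZ libraries, between 149 and 162, lie wholly below the control libraries, the lowest of which has 164.

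Regulation in this response passes through short promoter elements. They are shown for the regulators and for target genes described further on. The promoters are those of RefSeq on the GRCr8 assembly, from 250 bases before to 50 bases after the start site. An entry was found for 8 of the 10 regulators, all except Atf6 and Ern1. Both strands were searched for the ER stress response element (CCAAT, 9 bases, CCACG), to which ATF6 binds together with NF-Y, for the ER stress response element II (ATTGG, 1 base, CCACG), for the core of the UPR element (TGACGTG), and for the C/EBP-ATF response element (TGATG, 1 base, AA), to which ATF4 binds with C/EBP partners. They were found in 0.0765%, 0.0546%, 1.88% and 3.82% of 27457 promoters, respectively. Among the regulators, Xbp1 held the ER stress response element, Herpud1 held element II and a C/EBP-ATF element, Trib3 held a C/EBP-ATF element, and none held the UPR element core. The matches are shown 5′ to 3′ on the strand of the gene, with the bases of the match in capitals and up to 20 flanking bases. Those in Trib3 and the C/EBP-ATF match of Herpud1 are on the opposite strand.
Xbp1, chr14:84604538-84604596 (+): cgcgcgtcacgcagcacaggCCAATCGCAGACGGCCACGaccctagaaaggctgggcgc
Herpud1, element II, chr19:10614801-10614851 (-): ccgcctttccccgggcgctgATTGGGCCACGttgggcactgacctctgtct
Herpud1, C/EBP-ATF, chr19:10614864-10614911 (-): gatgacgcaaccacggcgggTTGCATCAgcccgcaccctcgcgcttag
Trib3, chr3:161275534-161275574 (-): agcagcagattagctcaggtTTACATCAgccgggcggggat

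The match of Xbp1 lay between 65 and 47 bases before the start site, and that of Trib3 between 21 and 14 bases before it. In Herpud1 element II lay between 124 and 114 bases and the C/EBP-ATF element between 184 and 177 bases before the start site. A match describes these letters only and is no evidence of binding in the IM tip. A window with no match says only that the letters are absent from it.

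Of the 3 sensors, Atf6 showed the largest difference relative to its error. The Atf6 gene (rn4, chr13:86542290-86718953) had 288, 278 and 164 normalized counts in the control libraries, in the order of replicates 1, 2 and 3 that is kept throughout. It had 149, 157 and 162 in the STZ libraries. The STZ libraries were close together and all below the controls, but control replicate 3 exceeded STZ replicate 3 by less than the SD of either group. The means were 243 ± 69.0 (SD, n = 3) in control and 156 ± 6.14 (SD, n = 3) in STZ. On the log2 scale the fold change was -0.59 ± 0.23 (SE), with a 95% interval from -1.11 to -0.08 and an adjusted p of 0.258 by limma. In whole tissue, fewer cells of a type and less RNA per cell cannot be told apart. The two-sided exact permutation test of 3 against 3 libraries gave p = 0.1, the smallest it can give. Without control replicate 3 the log2 fold change was -0.85 and the adjusted p 0.0449, and without control replicate 1 or 2 it was -0.45 or -0.47, with adjusted p of 0.534 and 0.599. Over all 17 alternative settings the log2 fold change stayed below 0 and the adjusted p lay between 0.0449 and 0.599.

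The features whose log2 values followed Atf6 most closely over the 6 libraries were Gpn3 (Pearson's r = 0.992), Tut1 (0.986) and Dap (0.985). These are descriptions over libraries that share depth and group. Gpn3 had 432, 446 and 295 normalized counts in the control libraries and 272, 275 and 273 in the STZ libraries. Control replicate 3 again lay nearest to the STZ libraries. None of the 3 features was called by limma, with adjusted p of 0.279 for Gpn3, 0.562 for Tut1 and 0.443 for Dap.

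Eif2ak3, the gene of the PERK kinase (chr4:104016939-104078258), had 73.8, 59.5 and 72.3 normalized counts in the control libraries. It had 83.6, 92.0 and 68.3 in the STZ libraries. STZ replicates 1 and 2 were above every control library and STZ replicate 3 was within the control range. This was a log2 fold change of 0.24 ± 0.22 (SE) with an adjusted p of 0.717 by limma, and the 95% interval allowed a ratio from 0.845 to 1.65.

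Ern1, which encodes the IRE1 kinase and RNase (chr10:95794487-95854859), was near the detection limit. Control replicates 1, 2 and 3 had 0, 9 and 15 reads, or 0, 6.86 and 16.7 normalized counts. STZ replicates 1, 2 and 3 had 4, 19 and 24 reads, or 3.71, 18.8 and 24.1 normalized counts. In both groups replicate 1 was lowest and replicate 3 highest, and the groups overlapped. Its log2 fold change was 1.36 ± 1.002 (SE), with a 95% interval from -0.85 to 3.56 and an adjusted p of 0.615 by limma. With a single library left out the value lay between 0.17 and 2.24. It also moved with the pseudocount, to 1.66 at 0.5 and 0.74 at 5, and was 0.98 by edgeR and 0.99 by DESeq2, so these libraries do not settle the size of the difference. Control replicate 1, with 0 reads, decided most of it: without that library the value was 0.17.

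As a measure of background, the 95th percentile of 835 olfactory receptor genes, best known from the nose, was computed in each library. In the control libraries it was 2.05, 6.33 and 10.02 normalized counts, and in the STZ libraries 1.86, 5.94 and 9.04. Within each group this background ranked the libraries in the same order as Ern1, but over all 6 libraries the orders differed, and Ern1 exceeded it in 5 of 6. The part of this background in the values of Ern1 was not tested.

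**Figure D2:**
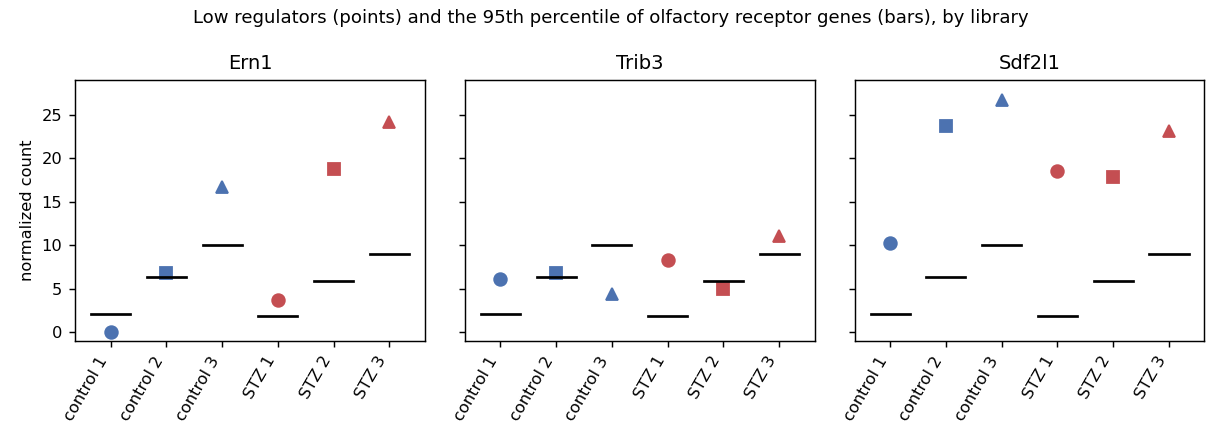
Normalized counts of Ern1, Trib3 and Sdf2l1 in each library (points, vertical axis) with the 95th percentile of 835 olfactory receptor genes in that library (horizontal bars). Sdf2l1 is above the bar in all 6 libraries, Ern1 in 5 and Trib3 in 4.

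Among the transcription factors, Atf4 (chr7:118536971-118538993) was read deeply and did not pass the test. Its normalized counts were 626, 689 and 434 in the control libraries. They were 584, 420 and 351 in the STZ libraries. STZ replicate 1 lay between the control values, and STZ replicates 2 and 3 lay below all of them. The means of 583 ± 133 in control and 452 ± 120 in STZ (SD, n = 3 each) differed by about the spread within either group. This gave a log2 fold change of -0.37 ± 0.24 (SE), with a 95% interval from -0.90 to 0.16 and an adjusted p of 0.549 by limma. Its upper end corresponds to a ratio of 1.12. ATF4 protein, which is controlled mainly in translation, was not measured by these libraries.

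The feature that merges Ddit3, the gene of the pro-apoptotic factor CHOP, with the methionyl-tRNA synthetase gene Mars (chr7:67247748-67269807) cannot be divided between them. It had 1994, 1902 and 1253 normalized counts in the control libraries and 1235, 791 and 999 in the STZ libraries. The control libraries were all higher, control replicate 3 by little. A log2 fold change of -0.76 ± 0.24 (SE) was obtained, with an adjusted p of 0.145 by limma. This value is not one of Ddit3.

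The remaining regulators are genes that the sensors induce. Trib3, a pseudokinase induced by ATF4 and CHOP (chr3:142664656-142670135), had only 4 to 11 reads in a library. Its normalized counts were 6.15, 6.86 and 4.45 in the control libraries and 8.36, 4.95 and 11.0 in the STZ libraries. The groups overlapped, and in control replicate 3 and STZ replicate 2 the value was below the olfactory receptor background. Trib3 had a log2 fold change of 0.38 ± 0.56 (SE) with an adjusted p of 0.862 by limma. The 95% interval allowed ratios from 0.554 to 3.04.

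Asns, the asparagine synthetase gene and a classical ATF4 target (chr4:32758606-32776554), had 809, 823 and 542 normalized counts in the control libraries. It had 669, 658 and 581 in the STZ libraries. All STZ values were inside the control range. Asns had a log2 fold change of -0.17 ± 0.20 (SE) with an adjusted p of 0.825 by limma, and the 95% interval allowed ratios from 0.652 to 1.22.

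Herpud1 encodes an ER membrane protein that assists degradation of misfolded proteins (chr19:11036572-11046936). Its normalized counts were 324, 236 and 279 in the control libraries and 273, 271 and 291 in the STZ libraries, and the STZ values were again inside the control range. The means were 280 ± 44.1 in control and 278 ± 11.1 in STZ (SD, n = 3 each). Their log2 fold change was 0.0046 ± 0.19 (SE) with an adjusted p of 0.997 by limma, and its sign changed in 4 of 17 alternative settings. The 95% interval, with ratios from 0.755 to 1.33, was the narrowest of the 8 regulators. Herpud1 carries both ER stress element II and a C/EBP-ATF element in the sequences shown earlier.

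Sdf2l1 encodes a cofactor of the ER chaperone BiP (chr11:85878092-85880335). It had 10.3, 23.6 and 26.7 normalized counts in the control libraries and 18.6, 17.8 and 23.1 in the STZ libraries. Control replicate 1 was the lowest library and control replicate 3 the highest. Its log2 fold change was 0.07 ± 0.39 (SE) with an adjusted p of 0.972 by limma, and its sign changed in 5 of 17 alternative settings.

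**Figure D3:**
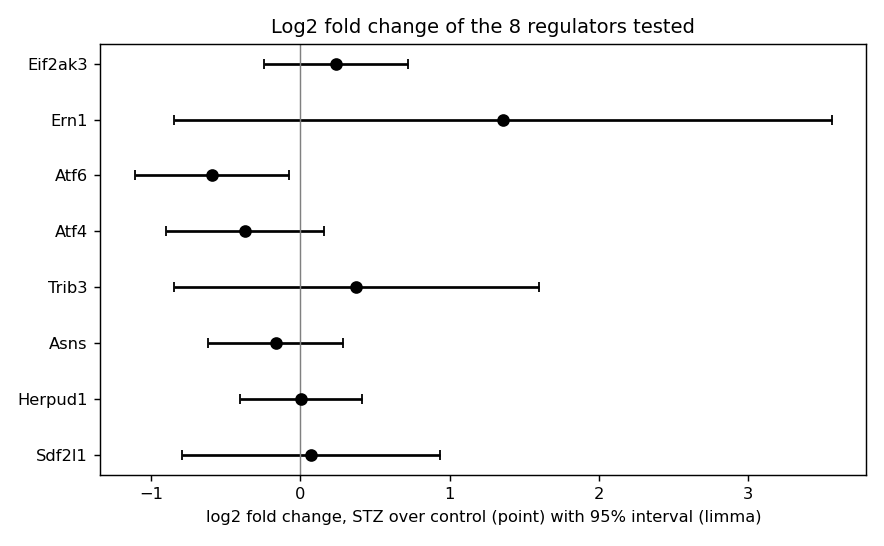
Log2 fold change, STZ over control, of the 8 regulators (points, horizontal axis) with its 95% interval by limma (lines). The interval leaves out 0 for Atf6, from -1.11 to -0.08, with an adjusted p of 0.258, and it is widest for Ern1, from -0.85 to 3.56.

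The wider UPR and integrated stress response was followed through 134 other genes in 7 lists by role. Of these, 104 had a feature of their own and 97 were tested. Of the 97, a single gene was called by limma, Aars1, which fell, against 2.10% of all features called in either direction. An unadjusted p under 0.05 was found for 12 of the 97, against 14.7% of all features. There were 4 higher and 8 lower among the 12. The median log2 fold change was -0.05, with 44 genes above 0 and 53 below. The groups did not overlap in 8 genes that were higher and 17 that were lower in STZ, against 20.3% of all features.

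**Figure D4:**
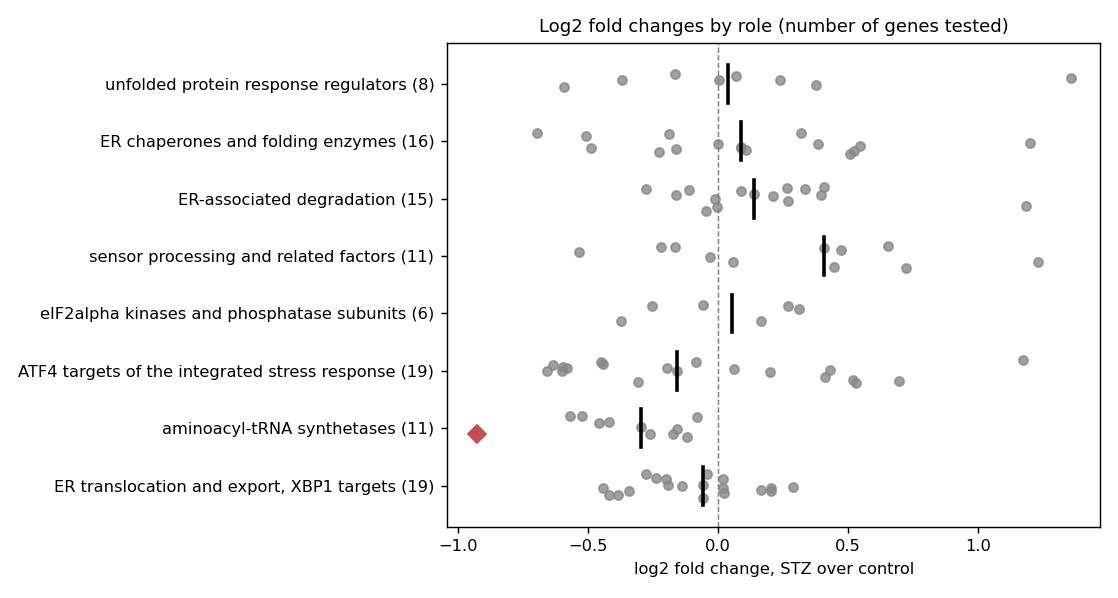
Log2 fold change, STZ over control (horizontal axis), of each tested gene in the 8 lists, with the number of genes tested in brackets. Gray points are genes not called, the red diamond is Aars1, the gene called by limma, and black bars are list medians. All 11 aminoacyl-tRNA synthetase genes lie below 0.

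ER chaperones and folding enzymes bind or modify proteins in the ER and are the main targets of ATF6 and XBP1. None of the 16 tested was called by limma, 10 lay above 0 and 6 below, and the median log2 fold change was 0.09. Hspa5, the gene of BiP, had 3034, 3076 and 2356 normalized counts in the control libraries. It had 2840, 1843 and 1514 in the STZ libraries, with STZ replicate 1 inside the control range and the others below it. For Hspa5 the log2 fold change was -0.49 ± 0.25 (SE) with an adjusted p of 0.404 by limma, and its 95% interval allowed ratios from 0.487 to 1.04. Hyou1, a BiP-related chaperone also induced by low oxygen, had 454, 528 and 404 normalized counts in the control libraries and 373, 286 and 212 in the STZ libraries. Its groups did not overlap, and its log2 fold change of -0.70 had an adjusted p of 0.161 by limma. Dnajc10, an ER disulfide reductase, had -0.51 with an adjusted p of 0.200. At the other end, Dnajc3, the ER cochaperone p58IPK, had 0.55 with an adjusted p of 0.378 by limma.

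Ero1a, an oxidase that feeds disulfide bond formation and is induced by low oxygen as well, had the highest log2 fold change of the chaperone list. It had 28.7, 20.6 and 31.2 normalized counts in the control libraries and 94.7, 35.6 and 70.3 in the STZ libraries. All STZ libraries were above the controls, STZ replicate 2 by the least. The adjusted p of its log2 fold change, 1.199 ± 0.35 (SE), was 0.121 by limma and 0.0363 by DESeq2 on the recovered reads.

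Among the chaperone promoters, 19 of 23 had an entry. The ER stress response element was present in 7 of them and element II in 2, against 0.0765% and 0.0546% of all promoters. Both elements are known from genes of this response, so the matches are no finding of these data. Printed with up to 12 flanking bases on the strand of the gene are those of Hspa5, Hyou1 and Dnajc3, which are described above and whose log2 fold changes differ in sign. The matches of Hspa5 and Dnajc3 are of the ER stress response element. The Hyou1 match is of element II on the opposite strand, and it is the nearer to the start site of 2 matches.
Hspa5, chr3:38452961-38453003 (+): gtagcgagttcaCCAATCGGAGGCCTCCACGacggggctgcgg
Hyou1, chr8:53602782-53602816 (+): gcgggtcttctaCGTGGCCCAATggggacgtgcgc
Dnajc3, chr15:102432522-102432564 (+): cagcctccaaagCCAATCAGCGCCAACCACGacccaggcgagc

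The 7 tested chaperone genes with an ER stress element, of either kind, had a median log2 fold change of 0.00019 and a range from -0.70 to 0.55. In the 6 tested genes whose promoter held neither element the median was -0.03, with a range from -0.51 to 0.52. The medians differed by far less than the spread inside either set.

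ER-associated degradation removes misfolded proteins through the membrane to the proteasome. None of its 15 tested genes was called by limma and none had an unadjusted p under 0.05. The median log2 fold change was 0.14, with 9 genes above 0 and 6 below. Edem1, a mannosidase-like lectin and XBP1 target, had 1, 12 and 12 reads in the control libraries and 8, 17 and 22 in the STZ libraries, and its log2 fold change of 1.18 had an SE of 0.73 and an adjusted p of 0.520 by limma. As for Ern1, replicate 1 was the lowest library of both groups. Derl1, a channel component, had 0.41 with an adjusted p of 0.410 by limma. Aup1, which recruits ubiquitin-conjugating enzymes, had 0.40, Edem2 had -0.16 and the ubiquitin ligase gene Rnf139 had -0.28.

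Of the genes that process the sensors or are related to them, 11 were tested and none was called by limma. Mbtps1, the protease that makes the first cut in ATF6, had 285, 365 and 282 normalized counts in the control libraries and 512, 462 and 315 in the STZ libraries. STZ replicate 3 overlapped the control libraries, and the log2 fold change of 0.45 had an adjusted p of 0.388 by limma. Atf6b, the paralog of Atf6, had a log2 fold change of -0.22 ± 0.28 (SE), with all values between 21.4 and 39.0 normalized counts. Creb3l4, a related membrane-bound factor, had 1.23 with an SE of 0.69 and an adjusted p of 0.454 by limma. The 2 apoptosis effectors that bind IRE1 lay on opposite sides, Bax at 0.72 with an adjusted p of 0.212 and Bak1 at -0.53 with an adjusted p of 0.443 by limma.

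Beside PERK, 6 genes of the eIF2alpha kinases, their substrate and the phosphatase that reverses them were tested, and none was called by limma. Eif2ak4, the GCN2 kinase that responds to lack of amino acids, had 62.5, 62.5 and 69.0 normalized counts in the control libraries and 80.8, 76.2 and 84.3 in the STZ libraries. The groups did not overlap, but the log2 fold change was 0.31 ± 0.20 (SE), with an adjusted p of 0.550 by limma. Eif2s1, which encodes eIF2alpha itself, had -0.25, Nck1, an adaptor of the phosphatase, had -0.37, and Ppp1r15b, its constitutive regulatory subunit, had 0.27.

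The 19 tested ATF4 targets of the integrated stress response were also without a call by limma, and 8 lay above 0 and 11 below, with a median log2 fold change of -0.16. Of the 19, 4 had an unadjusted p under 0.05, 2 higher and 2 lower in STZ, against 14.7% of all features. The higher were Vegfa and Psat1, the latter with a log2 fold change of 0.53 and an adjusted p of 0.227 by limma. The lower were Mthfd2 at -0.60 and Slc3a2 at -0.60, with adjusted p of 0.253 and 0.204 by limma. Psat1, Mthfd2 and Slc3a2 are named beyond the rule for named genes. The groups did not overlap in 1 gene that was higher and 4 that were lower, against 20.3% of all features. Vegfa, the endothelial growth factor gene, which is a target of low oxygen too, had 64.6, 34.3 and 59.0 normalized counts in the control libraries. It had 171, 61.3 and 148 in the STZ libraries, and STZ replicate 2 lay inside the control range. Vegfa had a log2 fold change of 1.17 ± 0.38 (SE) with an adjusted p of 0.155 by limma and of 0.0274 by DESeq2. Nupr1, a stress-induced chromatin protein, had 71242, 63506 and 86210 normalized counts in the control libraries and 42100, 59427 and 46583 in the STZ libraries. Its groups did not overlap, and its log2 fold change was -0.58 ± 0.32 (SE), with an adjusted p of 0.448 by limma. The factors Cebpb and Atf3 had 0.69 and -0.66, with adjusted p of 0.422 and 0.689 by limma, and Atf3 did not exceed 15 reads in any library. Stc2, a secreted stress glycoprotein, had -0.63 with an adjusted p of 0.614.

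The aminoacyl-tRNA synthetases charge tRNAs with amino acids, and a number of their cytosolic genes are ATF4 targets. The list holds 12 synthetase genes and not the whole family. All 11 tested genes had a log2 fold change below 0, against 49.5% of all features, with a median of -0.30. Of the 11, 4 had an unadjusted p under 0.05, against 14.7% of all features, and in 5 the groups did not overlap, against 20.3%. Aars1, the alanyl-tRNA synthetase gene (named Aars in the table, chr19:40952407-40974425), was the gene called. It had 635, 816 and 636 normalized counts in the control libraries. It had 342, 432 and 321 in the STZ libraries, so the highest STZ library was well below the lowest control library. The means were 695 ± 105 in control and 365 ± 59.1 in STZ (SD, n = 3 each), a ratio of 0.525. On the log2 scale Aars1 fell by 0.93 ± 0.20 (SE), with a 95% interval from -1.36 to -0.50 and an adjusted p of 0.0381 by limma.

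The call of Aars1 was close to the threshold, while its direction and size were stable over the settings run. Its log2 fold change lay between -1.06 and -0.81 in 17 alternatives and the adjusted p was under 0.05 in 10 of them, including edgeR (0.0448) and DESeq2 (0.000643). The call was lost without control replicate 1 (adjusted p 0.0607) or 2 (0.182) and without STZ replicate 1 (0.112), 2 (0.0738) or 3 (0.121). It was also lost with no filter on low values (0.169) and with limma without the intensity trend (0.179).

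Iars1, for isoleucine, had 404, 433 and 294 normalized counts in the control libraries and 250, 261 and 239 in the STZ libraries. Its log2 fold change was -0.57 ± 0.20 (SE) with an adjusted p of 0.185 by limma. Yars1, for tyrosine, and Nars1, for asparagine, had -0.52 and -0.46, with adjusted p of 0.252 and 0.303, and both are named beyond the rule for named genes because they complete the 4 with an unadjusted p under 0.05. At the other end of the list, Wars1 had -0.12 and Lars1 -0.08, and Sars1, for serine, had -0.30 with an adjusted p of 0.554 by limma. The merged feature of Ddit3 and Mars, described earlier, is not counted among the 11.

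By library, the median of the 11 synthetase genes relative to their control mean was 0.09, 0.15 and -0.17 on the log2 scale in control replicates 1, 2 and 3. It was -0.31, -0.25 and -0.34 in STZ replicates 1, 2 and 3. Control replicate 3 had 10 of its 11 genes below the control mean, as did STZ replicates 2 and 3, while STZ replicate 1 had all 11. The difference between control replicate 3 and the STZ libraries was therefore smaller than that of the other controls, as it was for Atf6.

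**Figure D5:**
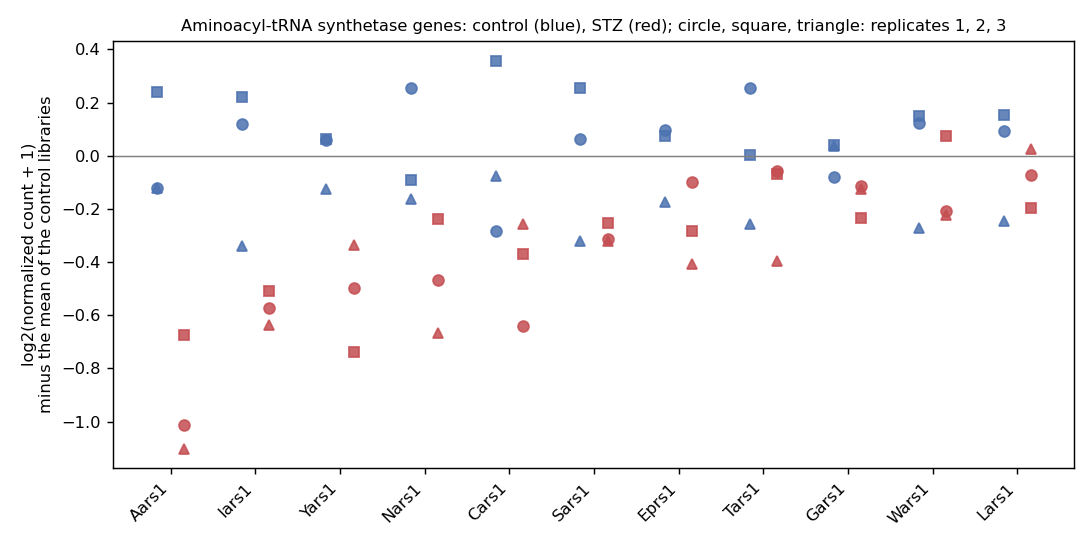
Log2(normalized count + 1) of the 11 aminoacyl-tRNA synthetase genes in each library, relative to the mean of the control libraries (vertical axis), with genes ordered by the mean of the STZ libraries. The STZ medians lie between -0.34 and -0.25, and control replicate 3 (blue triangles) has a median of -0.17.

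The C/EBP-ATF response element was found in 7 of the 11 synthetase promoters with an entry, against 3.82% of all promoters. Those of Iars1, Nars1 and Tars1, which lie before the start site, are shown as examples, with up to 12 flanking bases on the strand of the gene. The matches of Iars1 and Tars1 are on the opposite strand.
Iars1, chr17:15193657-15193688 (-): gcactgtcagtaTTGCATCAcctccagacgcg
Nars1, chr18:60275783-60275808 (-): ccctaggtgatcTGATGCAAcgcttc
Tars1, chr2:62114810-62114841 (-): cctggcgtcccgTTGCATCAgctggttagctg

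The 6 tested synthetase genes with the element had a median log2 fold change of -0.49 and a range from -0.93 to -0.17. The 4 tested genes whose promoter had an entry and no match had a median of -0.19 and a range from -0.30 to -0.08. The ranges overlapped, and all 4 synthetase genes with an unadjusted p under 0.05 were among the 6 with the element. In Yars1, which is among the 4, the only match lay at bases 39 to 46 after the start site. That of Cars1, which is not, lay at bases 18 to 25 after it. The motif was chosen after these values were seen, so the split is a description only, and the difference between these sets was not tested. In the other ATF4 targets the element was present in 5 of 24 promoters.

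The 19 tested genes of ER translocation and export, many of them XBP1 targets, included none called by limma and none with an unadjusted p under 0.05. Of these, 7 lay above 0 and 12 below, and the median log2 fold change was -0.06. The lowest were Ssr1, a translocon-associated subunit, at -0.44 with an adjusted p of 0.379, and Sec61g, a subunit of the translocation channel, at -0.42 with an adjusted p of 0.407 by limma. The highest were the coat protein gene Sec31a at 0.29 and Sec63, a cochaperone of the channel, at 0.20. Sec62, the gene with the most reads of this list, had -0.28 with an adjusted p of 0.647 by limma.

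Some cell type markers differed between the groups beside these genes. The summed intercalated cell markers (5 of 5 found) were 475 to 775 normalized counts in the control libraries and 176 to 241 in the STZ libraries. Of the 4 tested, 3 were called lower by limma, against 0.927% of all features. The proximal tubule markers (3 of 4 found) summed to 180 to 314 in control and 42.5 to 93.4 in STZ. This difference was that of Kap, which was called lower, with means of 217 and 47.0 normalized counts, while Lrp2 had means of 14.9 and 19.1 and Cubn of 3.61 and 3.65. The urothelium markers (4 of 5 found) summed to 79.3 to 124 in control and 420 to 501 in STZ. Of the 4, 2 were called higher by limma, against 1.17% of all features. These were Upk3a, with means of 35.3 in control and 344 in STZ, and Upk1b, with 29.4 and 70.3. Upk2 had 8.19 and 15.6, and Upk1a, whose groups overlapped, had 28.5 and 32.9. The groups overlapped for principal cells (10692 to 18668 against 18144 to 35182), thin limb (30969 to 43637 against 28971 to 36612), thick ascending limb (2507 to 3191 against 1562 to 2738, with Umod called lower) and endothelium (1561 to 2345 against 1416 to 1868). They also overlapped for fibroblasts (7011 to 8562 against 3571 to 9523), leukocytes (488 to 2608 against 1426 to 2619) and the B and plasma cells, which secrete much protein (352 to 459 against 350.1 to 376). Of the last list, Ms4a1 did not exceed 3 reads in any library. The part of these shifts in the values of Aars1 and Atf6 was not tested.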

How the data were processed

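RNA-seq libraries of the rat IM tip (3 control, 3 STZ) were analyzed from the deposited table. Per the labels and the study's methods, the authors aligned reads to rn4 with STAR 2.3.1t, counted uniquely mapped reads per gene and normalized them with DESeq 1.16.0. The read counter and whether it used strand are not given in the sources used here, so overlapping and antisense genes may share reads. The deposited signal is a normalized count, reads over the size factor of the library. All values of a library (100%) were whole multiples, within 0.01 of a read, of what a read is worth there, which gave back whole reads. Of 27321 features, 2720 lie between genes and 527 merge genes.

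The 13486 features that averaged 5 or more over all 6 libraries were compared in limma 3.58.1 (R 4.3.3), after taking log2(normalized count + 1), using an intensity trend, adjusted by Benjamini-Hochberg over all of them with a threshold of 0.05. Log2 fold changes are on that scale, where those of low genes depend on the pseudocount. Single genes were also compared by two-sided exact permutation tests. The alternatives run used a pseudocount of 0.5 or 5, a minimum mean of 1 or 20, no filter, equal library totals, quantile normalization, no intensity trend, edgeR 4.0.16 and DESeq2 1.42.0 on the recovered reads, a replicate block, and each library left out.

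The regulators and the lists were chosen with earlier results of these data known. Named genes are all regulators and, of each list, those past the threshold, the 2 highest and 2 lowest log2 fold changes and the highest mean. For the regulator with the largest moderated t, the 3 features of the highest correlation are named. Promoters were to be printed for regulators past the threshold or with groups that do not overlap, and the only such gene, Atf6, had no entry. The promoter sequences printed, the motifs searched, Psat1, Mthfd2, Slc3a2, Cars1, Yars1, Nars1 and Tars1 were chosen after values were seen. Older names (Aars for Aars1, Ero1l for Ero1a) were matched through older symbols given with the gene lists. Sesn2 was matched through a RefSeq synonym and Manf through a protein entry name. Coordinates of genes are those of rn4 in the table, and promoters are on GRCr8. The expression of Xbp1 and of the other listed genes without a feature of their own was not analyzed here. A further promoter sequence is not reported here.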

Additional observations from a re-analysis of the deposited data

How the results depend on the processing

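The 8 regulators gave 0 calls in every alternative except the one without control replicate 3, which gave 1 (Atf6), so leaving out single libraries gave 0 to 1. The wider list gave 1 call by limma, 0 with no filter on low values and without the intensity trend, 3 with DESeq2, and 0 to 1 when a single library was left out. Over all features 283 calls became 98 with no filter, 522 after quantile normalization, 31 without the intensity trend, 599 with DESeq2 and 86 (without STZ replicate 2) to 341 (without control replicate 3) when a single library was left out. The causes of these differences were not tested. The log2 fold change of Herpud1 was below 0 with equal library totals (-0.0248) and DESeq2 (-0.0059) and ranged from -0.11 to 0.12 over the libraries left out. That of Sdf2l1 was below 0 after quantile normalization (-0.0014), with edgeR (-0.0293) and with DESeq2 (-0.0343), and ranged from -0.34 to 0.31. The other 6 regulators and Aars1 kept their direction. The median log2 fold change of all features moved from 0.0056 to between -0.02 and 0.04 over the settings.

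Replicate numbers are shared between the groups. Same-numbered libraries deviated from their group means with correlations of 0.395, -0.06 and 0.323 over 9315 features. Control replicates 1 and 3 correlated best with the STZ library of the same number, and control replicate 2 with STZ replicate 1 (0.107). The labels do not say that the numbers pair the rats. With 3 libraries in each group, these correlations cannot decide it. With the replicate block, 561 features, 0 regulators and 3 genes of the wider list (Aars1, Ero1a and Vegfa) were called. Ern1 and Trib3, with 71 and 44 reads over all libraries, were not tested at a minimum mean of 20, and DESeq2 gave no adjusted p for them or for Sdf2l1.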
